A study of Mus musculus with 16 samples.

Results

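Mouse alveolar rhabdomyosarcoma cells that had been sorted for a 4N DNA content were compared after transfection with an siRNA against eYFP or with a control siRNA. In this tumor model eYFP is the second cistron of the Pax3:Foxo1a mRNA, so that an siRNA against eYFP also targets the fusion transcript. By western blot, the paper reports that this siRNA lowered the fusion protein. The comparison rested on the 6 arrays of 4N (G2/M) cells out of 16 in the series, with 3 experiments of 4N control cells and 3 of 4N knockdown cells, chosen by their labels alone. All cells carried the genotype Myf6Cre,Pax3:Foxo1a,p53, in which a Cre recombinase driven from the Myf6 locus switches on the fusion and removes p53 in maturing muscle cells, so the controls lacked p53 as well. The knockdown cells received 10 nM siYFP, and the labels give no dose for the control siRNA. The cells were a primary tumor culture, not a clonal line, and the labels do not state that the 3 experiments came from different tumors, so the errors below describe the spread between experiments. Only 1 siRNA sequence against eYFP was used, and a response to that duplex cannot be told apart from a response to knockdown of the fusion.

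PAX3:FOXO1 joins the DNA-binding domains of PAX3, a factor of embryonic muscle progenitors, to the activation domain of FOXO1. The fusion is a strong transcriptional activator and is known to hold rhabdomyosarcoma cells in a proliferating state in which muscle genes are begun but not carried through. The sections below describe the functions outside the cell cycle that changed in the 4N cells after knockdown: contractile proteins, interferon-induced genes and antigen presentation, extracellular matrix, growth factor signalling, and metabolism and stress.

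All values are log2 normalized signals of Illumina MouseRef-8 arrays, and changes are log2 differences of knockdown over control with the standard error (SE) of a limma fit. A gene was called when its p-value, adjusted by Benjamini-Hochberg over all 9146 genes tested, was under 0.05. Between 12642 and 12905 of 25697 probes were detected on each array of 4N cells. Arrays of the same group correlated at 0.990 to 0.994, whereas control and knockdown arrays correlated at 0.973 to 0.979. Every array thus correlated more with its own group than with the other. These correlations run over all genes, and for some genes below control array 1 lay apart from the other controls. For Itga11, Gdnf and Ccn2 among these, knockdown array 1 of the same experiment was the lowest of its group too.

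Foxo1, whose sequence the fusion shares, was lower after knockdown. Its signal was 9.62, 9.38 and 9.40 in the 4N control cells of experiments 1 to 3 and 8.61, 8.64 and 9.04 in the knockdown cells. The groups did not overlap, and the change was -0.70 (SE 0.14, adjusted p = 0.00503). The probe may read both normal Foxo1 and the fusion, since its position was not used here. The Pax3 probe was detected on 0 of 16 arrays and gives no check of the fusion.

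In the 4N cells 899 genes rose and 848 fell, which is 9.83% and 9.27% of the genes tested and 19.1% in either direction. Of these, 239 rose and 103 fell by more than 1 on the log2 scale. The median change over all genes was -0.01. The groups did not overlap for 3392 genes (37.1% of those tested), among them 1735 of the 1747 called genes. Genes in 35 lists by function were counted against these background shares. List members are counted by their calls, and no list was tested as a set. The lists and their members were chosen with earlier results of these data known. A share above the background may owe in part to that choice, so the shares are a description only. Only members that passed the detection filter are called measured. A gene silent in control cells passed through the knockdown arrays alone, so the medians over measured members lean toward genes that moved, and the median over all members with a probe is given beside them where it differs by over 1.5 times. Counts of 1 to 3 members often changed by 1 or more between settings.

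**Figure D1:**
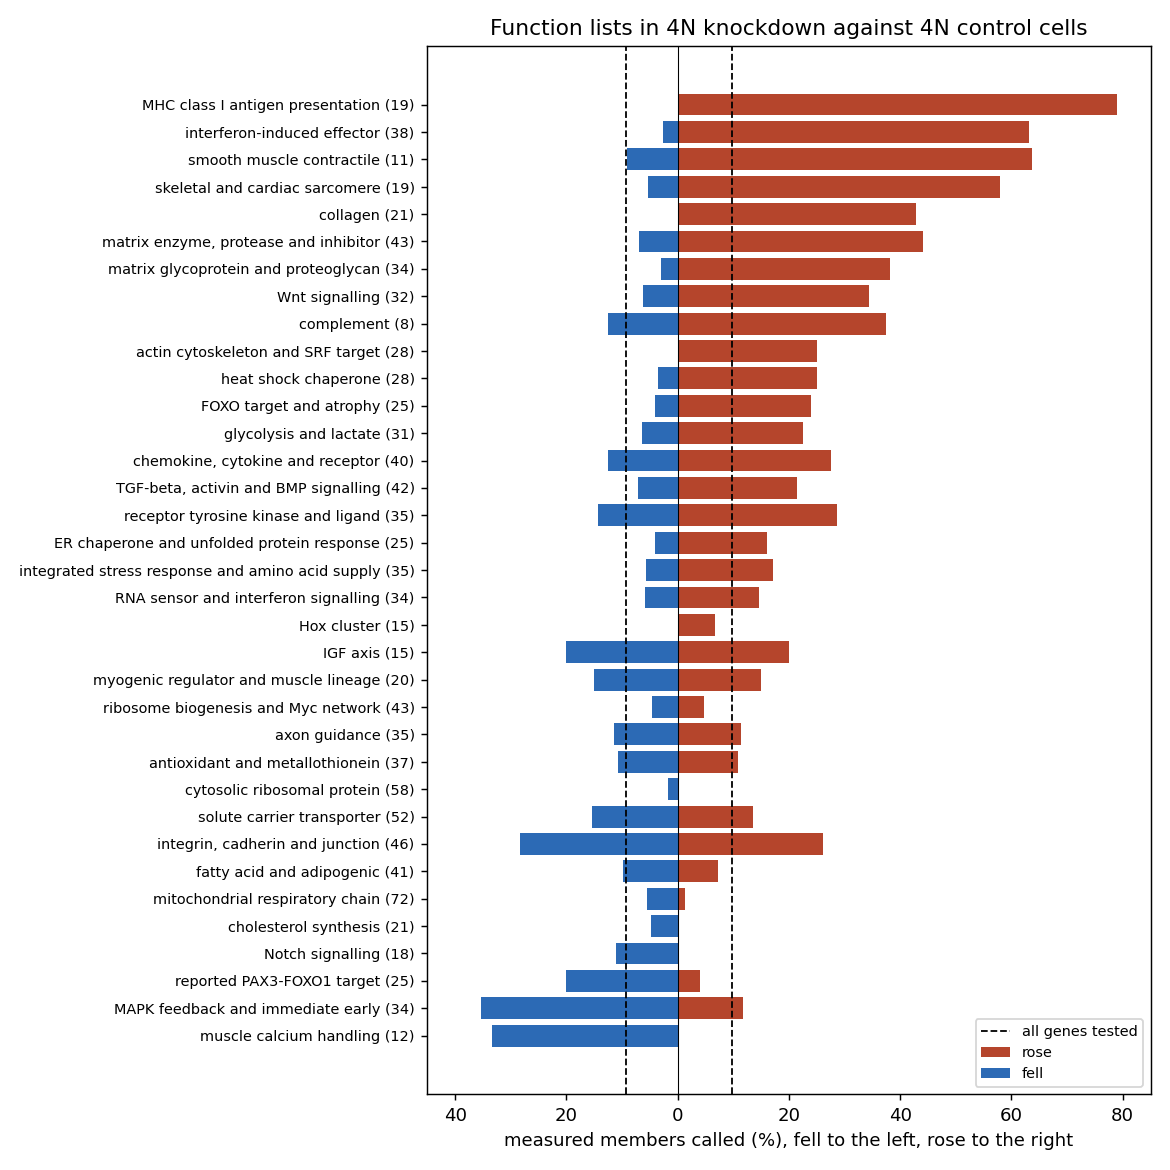
Share of the measured members of each function list that rose (right, red) or fell (left, blue) in 4N knockdown against 4N control cells, in percent, with the number of measured members in parentheses and the shares over all genes tested as dashed lines (9.83% and 9.27%). MHC class I antigen presentation, interferon-induced effectors and the contractile lists extend furthest to the right, and the MAPK feedback and muscle calcium handling lists furthest to the left. The lists were chosen with earlier results of these data known.

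The largest rise in 4N cells was that of Car3, a carbonic anhydrase abundant in muscle and fat. Car3 read 8.02, 7.97 and 8.49 in control cells and 11.93, 11.78 and 12.26 in knockdown cells, a change of 3.83 (SE 0.23, adjusted p = 1.47e-06) or 14.2-fold. The other 14 largest rises were those of Itga11, Ogn, Bmp4, Ccl7, Lox, Hspa1a, Cxcl12, Adamts4, Acta1, Igfbp2, Usp18, Gbp2, Fas and Inhba, between 2.53 and 3.34. They encode mostly secreted, matrix and cell surface proteins, together with the inducible chaperone Hspa1a, skeletal actin Acta1 and the interferon-induced Usp18 and Gbp2. Fas, the death receptor, rose from 5.68, 6.37 and 6.75 to 8.44, 8.96 and 9.004. Every knockdown array lay above every control array for each of these 15 genes.

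The falls were smaller than the rises. The 15 largest lay between -1.98 and -1.49 and were those of Serpinb2, Atp13a4, Il24, Krt13, Nectin2, Gsta1, Id4, Fgf8, Gsta2, Sema7a, Itgb7, Grip1, Btc, Cdh6 and Slco4a1. Serpinb2, an inhibitor of plasminogen activators, was detected on all 3 control arrays (6.93, 7.21 and 7.29) and on no knockdown array (4.96, 5.06 and 5.49), so that it was at least 2.67-fold lower. Krt13, a keratin of stratified epithelium, likewise went from 3 detected control arrays to 0 knockdown arrays and was at least 3.17-fold lower. For genes undetected on every array of a group, the fold is such a lower bound, taken against the dimmest detected signal of each array. Gsta1 and Gsta2 are near-identical glutathione transferases whose probes may read each other. Both were called in the full fit but not without knockdown array 1, knockdown array 2 or control array 3. The adjusted p was then up to 0.0568 for Gsta1 and up to 0.102 for Gsta2. Those fits had no block by experiment. Gsta1 read 8.14, 8.03 and 9.29 in control cells and 6.40, 6.296 and 7.52 in knockdown cells of experiments 1 to 3. For both genes experiment 3 was the highest in each group. With the experiment as a block both genes kept their call.

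Part of the contractile genes rose. Sarcomeres are built from actin thin filaments, which carry troponin and tropomyosin, and from myosin thick filaments. Of 19 measured members of the skeletal and cardiac sarcomere list, 11 rose, 1 fell and 7 were not called, with a median change of 1.15 against -0.01 over all genes; the median of the measured members was 1.34, 1.05 and 1.19 in experiments 1 to 3. Without the detection filter 11 of the 40 members with a probe rose and their median was 0.08. Acta1, the skeletal muscle alpha-actin, read 9.43, 10.06 and 10.16 in control cells and 12.61, 12.61 and 12.84 in knockdown cells (change 2.80, SE 0.26, adjusted p = 3.04e-05). All knockdown arrays were higher than all control arrays, by more than 2 on the log2 scale. Tnnc1, the calcium-binding troponin of slow and cardiac muscle, went from 7.02, 7.27 and 6.97 to 9.17, 9.18 and 9.03 (2.04, SE 0.17, adjusted p = 1.13e-05). Tnnt3, the fast troponin T, went from 7.37, 7.003 and 6.93 to 9.23, 9.12 and 8.64 (1.90, SE 0.24, adjusted p = 0.000223). The myosin light chain Myl1 varied more between experiments, from 7.26, 6.01 and 6.24 to 9.43, 8.22 and 7.86 (2.00, SE 0.41, adjusted p = 0.00546), and experiment 1 was the highest in both groups. The M-band protein Myom1, picked after its value was seen, changed by 0.07 (SE 0.16, adjusted p = 0.814) and was not called. Tmod1, which caps the pointed ends of actin filaments, was the member that fell in the full fit (-0.70, SE 0.20, adjusted p = 0.0306). It was not called without control array 1 or 3 or knockdown array 1 or 2 (adjusted p up to 0.116).

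Of 11 measured smooth muscle contractile genes 7 rose and 1 fell, with a median of 0.97, and of 0.54 over all 17 with a probe or without background correction. The member that fell, the myosin light chain kinase Mylk (-0.44), was called in the full fit and without control array 3, but not without any of the other 5 arrays (adjusted p up to 0.106). Actg2, the enteric smooth muscle actin, read 10.49, 11.34 and 10.94 in control cells and 13.12, 13.42 and 13.50 in knockdown cells (2.42, SE 0.24, adjusted p = 4.37e-05). Tagln, an actin-binding protein of smooth muscle, went from 7.63, 8.10 and 8.07 to 9.86, 10.04 and 10.13 (2.07, SE 0.22, adjusted p = 6.40e-05). Acta2, vascular smooth muscle actin, was already bright at 14.38, 14.998 and 14.56 and reached 15.75, 15.52 and 15.70 (1.01, SE 0.20, adjusted p = 0.00423). The other Acta2 probes, which were dimmer, rose more, by 2.20 (SE 0.29), 2.03 (SE 0.17) and 2.27 (SE 0.31). On the probes used the groups did not overlap for Actg2, Tagln or Acta2. Myh11 and Cnn1, defining proteins of mature smooth muscle, were detected on none of the 6 arrays. The broader list of actin cytoskeleton genes and targets of serum response factor (SRF) had 7 of 28 members up and 0 down, with a median of 0.26. Its largest rise was that of the matricellular growth factor Ccn2, from 9.61, 10.95 and 11.07 to 11.78, 12.85 and 12.52 (1.84, SE 0.47, adjusted p = 0.0171), where array 1 was the lowest in each group. Amotl2, an angiomotin that binds YAP, rose by 1.24 (SE 0.28, adjusted p = 0.00892) and Palld, an actin-bundling protein, by 0.68 (SE 0.14, adjusted p = 0.00614). The count of 7 depended on the arrays used: it was 2 without control array 1 or without knockdown array 2, 4 without control array 2, 3 without knockdown array 3, and 11 in a fit blocked by experiment. Ccn2 was not called without control array 1, knockdown array 2 or knockdown array 3 (adjusted p up to 0.0686).

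Upstream muscle regulators rose and fell in equal shares of 15%, beside 9.83% and 9.27% of all genes. Of 20 measured myogenic regulators and lineage genes 3 rose and 3 fell (5 and 5 in the blocked fit, and 1 fell without control array 1, knockdown array 2 or knockdown array 3), and the list's median was -0.15 (-0.04 over all 37 with a probe). Myog, the regulator of terminal muscle differentiation, was detected on all 6 arrays and changed by -0.15 (SE 0.24, adjusted p = 0.735). Myf5, a regulator of muscle commitment, changed by -0.86 (SE 0.44, adjusted p = 0.208), and Myod1 and Pax7 were detected on none of the 6 arrays. Eya4, a co-activator that works with homeodomain factors, rose by 1.01 (SE 0.13, adjusted p = 0.000274) and Rapsn, which clusters acetylcholine receptors, by 0.57 (SE 0.11, adjusted p = 0.00409). Chrnb1, the beta subunit of the muscle acetylcholine receptor, fell from 11.95, 12.23 and 11.98 to 11.34, 11.55 and 11.51 (-0.59, SE 0.12, adjusted p = 0.0042). Calcium handling genes of muscle had 0 of 12 members up and 4 down. Ryr3, a ryanodine receptor that releases calcium from the sarcoplasmic reticulum, fell from 9.20, 9.14 and 8.80 to 7.96, 7.29 and 7.77 (-1.37, SE 0.24, adjusted p = 0.00174). The inositol trisphosphate receptors Itpr3 and Itpr2 fell by 0.72 (SE 0.14) and 0.58 (SE 0.14), with adjusted p-values of 0.00469 and 0.0127.

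**Figure D2:**
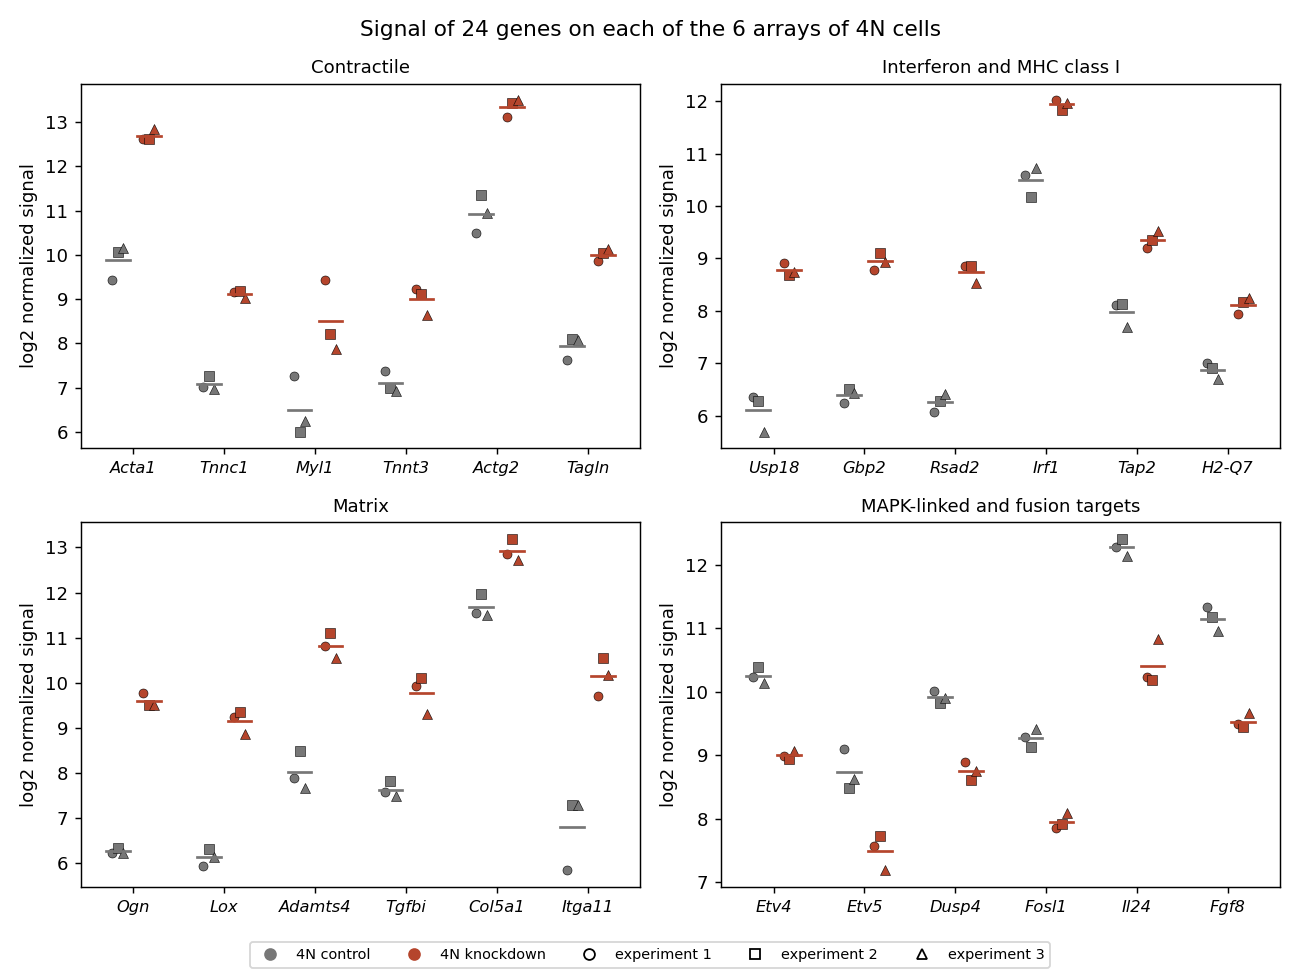
Log2 normalized signal of 24 genes on each of the 6 arrays of 4N cells, with control in grey and knockdown in red, a marker shape for each experiment and a line at each group mean. No gene shown has overlapping groups; levels of different genes are not comparable with each other.

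Promoter windows of the sarcomere genes are shown because part of these genes rose. Windows of 250 bases before to 50 after the RefSeq start site (build GRCm38.p6) were searched on both strands for the E-box CAGCTG, the sequence read by MYOD-family factors, and for the CArG box, the sequence read by SRF. Of 9 risen sarcomere genes with a window 4 held the E-box (44.4%) and 2 the CArG box (22.2%), beside 17.8% and 1.64% of the 7491 tested genes with a window. Of all 16 measured sarcomere genes with a window, risen or not, 6 held the E-box (37.5%) and 3 the CArG box (18.8%). Neither motif thus marked the risen members alone. In the actin cytoskeleton and SRF target list 2 of 6 risen and 7 of 26 measured genes with a window held a CArG box. None of the 5 risen smooth muscle genes with a window held a CArG box there. These are matches of letters in a short window and were not tested as binding sites. In the stretches below the matches are in capitals, and that of Acta1 holds the E-box before the CArG box.
Acta1 (chr8:123894779-123895025, minus strand): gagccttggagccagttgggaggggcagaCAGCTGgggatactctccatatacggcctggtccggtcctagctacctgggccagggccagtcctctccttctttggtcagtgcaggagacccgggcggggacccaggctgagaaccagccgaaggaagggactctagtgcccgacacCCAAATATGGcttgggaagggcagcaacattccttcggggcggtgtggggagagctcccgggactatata
Myl1 (chr1:66945215-66945306, minus strand): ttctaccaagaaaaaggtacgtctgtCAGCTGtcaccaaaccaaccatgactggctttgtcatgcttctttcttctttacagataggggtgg
Actc1 (chr2:114052853-114052982, minus strand): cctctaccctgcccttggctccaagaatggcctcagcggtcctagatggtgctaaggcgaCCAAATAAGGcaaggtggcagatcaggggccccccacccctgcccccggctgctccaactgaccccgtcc

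Many genes induced by interferon rose. Interferons signal through JAK kinases and STAT and IRF factors to promoters with an interferon-stimulated response element (ISRE), and the products block viral replication and enlarge antigen presentation. Of 38 measured interferon-induced effectors 24 rose and 1 fell, and the median change was 0.79 (0.80, 0.78 and 0.84 in experiments 1 to 3). Without the detection filter 24 of the 59 members with a probe rose and the median was 0.28. Usp18, which removes the ubiquitin-like ISG15 from proteins and damps interferon signalling, read 6.35, 6.28 and 5.69 in control cells and 8.91, 8.68 and 8.74 in knockdown cells (2.67, SE 0.17, adjusted p = 2.01e-06). The guanylate-binding protein Gbp2 went from 6.23, 6.51 and 6.44 to 8.79, 9.11 and 8.93 (2.55, SE 0.15, adjusted p = 9.49e-07). Rsad2, the antiviral viperin, went from 6.08, 6.28 and 6.41 to 8.85, 8.86 and 8.52 (2.49, SE 0.14, adjusted p = 7.89e-07). For all of these the lowest knockdown array was more than 2 above the highest control array. Parp14, an ADP-ribosyltransferase, was detected on no control array and on all 3 knockdown arrays and was at least 3.10-fold higher. Pml, the organizer of nuclear bodies, was the member that fell, by 0.49 (SE 0.11, adjusted p = 0.01). Isg15 itself rose by 1.17 and Eif2ak2, the kinase PKR that senses double-stranded RNA, by 0.62; both were picked after their values were seen.

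Of 34 measured sensors and signalling proteins of the same system 5 (14.7%) rose and 2 (5.88%) fell, with a median of 0.05. Of all genes 9.83% rose and 9.27% fell. The count that fell was 1 when an array other than control array 3 was left out. Irf1, a factor that binds interferon-responsive promoters, was already bright and rose from 10.60, 10.18 and 10.73 to 12.02, 11.84 and 11.97 (1.44, SE 0.14, adjusted p = 3.55e-05). Nlrc5, the transactivator of MHC class I genes, was detected on 0 control and 3 knockdown arrays and was at least 1.27-fold higher. Ddx58, the RNA sensor RIG-I, rose by 0.77 (SE 0.14, adjusted p = 0.00219). Mavs, the adaptor through which RIG-I signals, fell from 9.67, 9.73 and 9.25 to 8.74, 8.73 and 8.97 (-0.74, SE 0.16, adjusted p = 0.00766). The probes of the interferon genes Ifnb1 and Ifna2 and of Irf7, Tap1, Ifih1 and Ifnar1, looked up after the lists had been counted, were detected on none of the 6 arrays.

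Antigen presentation by MHC class I had the largest share of risen members of all lists: 15 of 19 rose, 0 fell and the median was 0.79. The median was 0.44 over all 26 members with a probe, of which 15 rose, and 0.48 without background correction. Class I molecules display peptides that are cut by the proteasome, carried into the endoplasmic reticulum by the TAP transporter and trimmed there. The immunoproteasome subunit Psmb9 read 5.60, 5.88 and 5.85 in control cells and 7.31, 7.24 and 7.59 in knockdown cells (1.602, SE 0.16, adjusted p = 5.12e-05). The transporter subunit Tap2 went from 8.10, 8.13 and 7.69 to 9.20, 9.35 and 9.53 (1.39, SE 0.16, adjusted p = 9.78e-05). The groups did not overlap for either gene. The class I heavy chains H2-Q8 and H2-Q7 rose by 1.41 (SE 0.16) and 1.25 (SE 0.12), with adjusted p-values of 8.24e-05 and 4.37e-05, but these near-identical genes may be read by the same RNA. The count was between 10 and 15 under every alternative setting tried.

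Of the 21 risen interferon-induced effectors with a promoter window, 11 (52.4%) held the ISRE core (GAAA, any 2 bases, GAAA, on either strand, overlapping matches counted separately), beside 3.50% of the 7491 tested genes. The share was 4 of 12 risen class I genes (33.3%). The share among all 33 measured effectors with a window, risen or not, was 48.5%, so the core did not mark the risen members alone. Windows of 3 effectors and 2 class I genes with the largest rises among those that hold the core are shown with the core in capitals. All run from 5′ to 3′ on the strand of the gene, and a core on the other strand reads as TTTC, any 2 bases, TTTC.
Gbp2 (chr3:142620544-142620673, plus strand): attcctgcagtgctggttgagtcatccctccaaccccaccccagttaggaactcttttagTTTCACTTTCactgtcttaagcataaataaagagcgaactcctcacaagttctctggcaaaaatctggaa
Rsad2 (chr12:26456503-26456632, minus strand): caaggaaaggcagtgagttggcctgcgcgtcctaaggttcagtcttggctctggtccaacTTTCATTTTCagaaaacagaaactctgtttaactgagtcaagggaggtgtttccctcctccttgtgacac
Igtp (chr11:58199462-58199591, plus strand): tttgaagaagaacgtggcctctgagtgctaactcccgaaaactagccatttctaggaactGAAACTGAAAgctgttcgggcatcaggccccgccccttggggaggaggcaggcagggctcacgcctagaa
H2-T23 (chr17:36032756-36032885, minus strand): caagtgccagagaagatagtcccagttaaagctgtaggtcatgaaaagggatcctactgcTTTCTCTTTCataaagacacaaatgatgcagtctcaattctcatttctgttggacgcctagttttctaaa
Erap1 (chr13:74639789-74639902, plus strand): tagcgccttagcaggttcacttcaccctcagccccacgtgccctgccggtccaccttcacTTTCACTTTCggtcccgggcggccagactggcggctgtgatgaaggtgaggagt

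**Figure D3:**
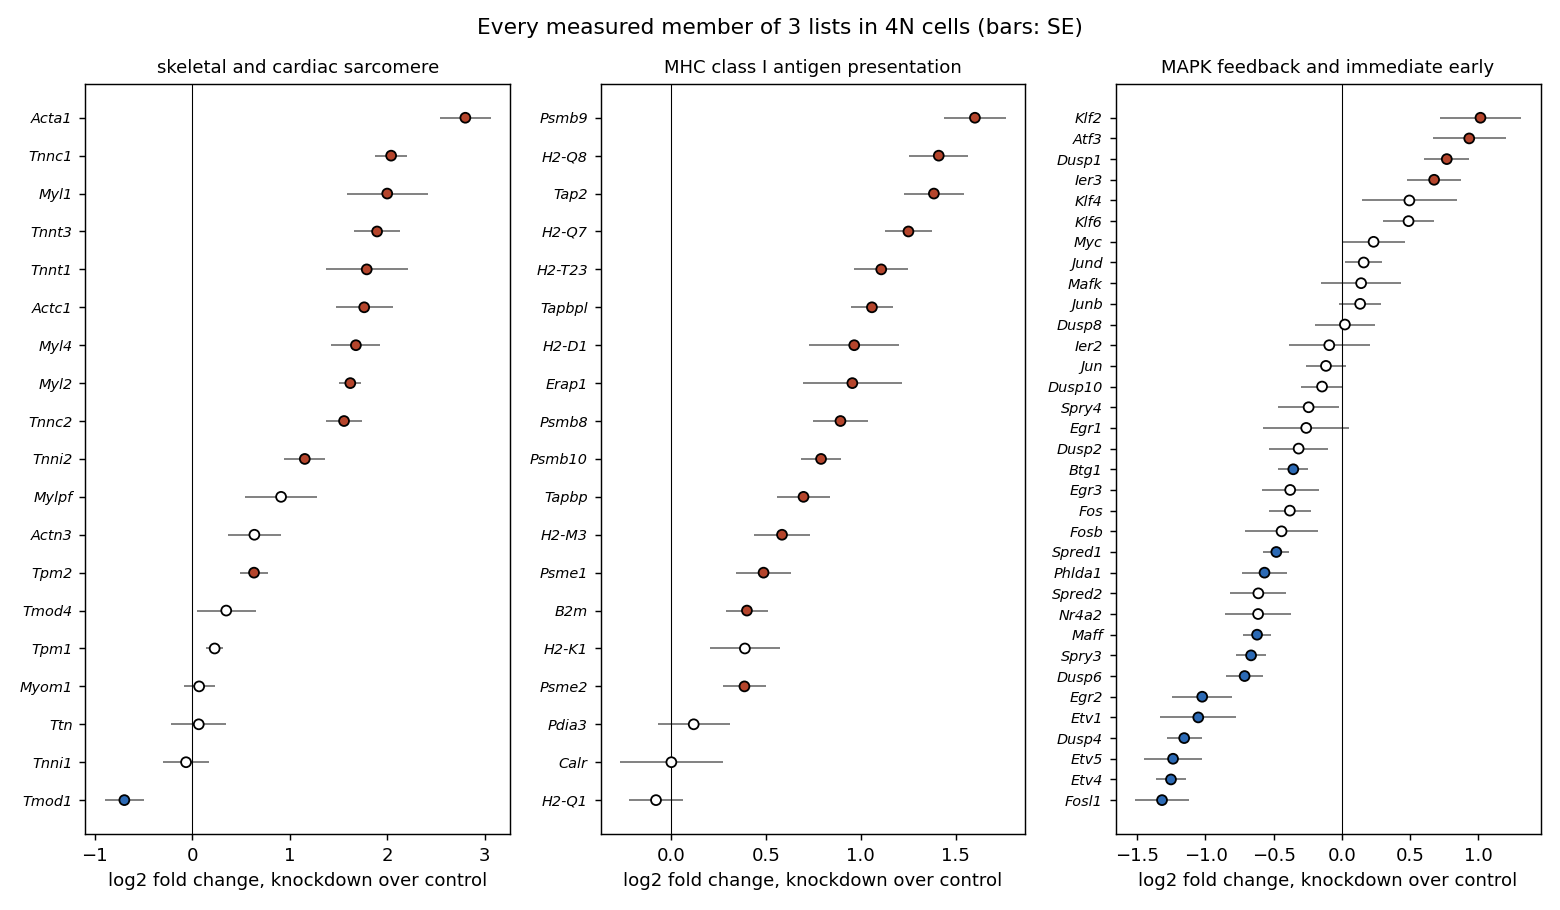
Log2 fold change of knockdown over control in 4N cells for every measured member of 3 lists, with the SE as bars; red marks genes that rose, blue genes that fell and white genes that were not called. In the sarcomere list 11 of 19 members rose and in the class I list 15 of 19, whereas 12 of 34 MAPK feedback and immediate early genes fell.

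Genes for the fibres, the crosslinking enzymes and the proteases of the extracellular matrix rose. Of 21 measured collagen genes 9 rose and 0 fell, with a median of 0.49, of 0.16 over all 34 with a probe and of 0.28 without background correction. Col8a2, a short-chain collagen of basement membranes, read 5.64, 6.10 and 5.89 in control cells and 8.12, 8.25 and 7.96 in knockdown cells (2.23, SE 0.23, adjusted p = 4.57e-05). Col5a1, which sets the diameter of collagen fibrils, went from 11.54, 11.96 and 11.51 to 12.85, 13.19 and 12.73 (1.25, SE 0.23, adjusted p = 0.00285). Neither pair of groups overlapped. Col1a1, the main fibrillar collagen, went from 5.34, 6.02 and 5.19 to 7.68, 7.60 and 6.14 (1.62, SE 0.43, adjusted p = 0.0217) and was not called without control array 1 or 3 or knockdown array 1 or 2 (adjusted p up to 0.0848).

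Among matrix glycoproteins and proteoglycans 13 of 34 rose and 1 fell, with a median of 0.30 (0.09 over all 57 with a probe). The count of risen genes was 8 without control array 3. The member that fell, the tenascin Tnxb, lost its call when an array other than control array 2 was left out (adjusted p up to 0.0942). Ogn, osteoglycin, a small leucine-rich proteoglycan, went from 6.23, 6.33 and 6.24 to 9.77, 9.50 and 9.50 (3.32, SE 0.14, adjusted p = 1.37e-07). Tgfbi, which links collagen to integrins, went from 7.58, 7.82 and 7.48 to 9.92, 10.11 and 9.31 (2.15, SE 0.23, adjusted p = 6.40e-05). The matricellular protein Ccn5 was undetected in control cells and at least 2.43-fold higher after knockdown, and thrombospondin Thbs1 rose by 1.56 (SE 0.23, adjusted p = 0.000579).

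Matrix enzymes, proteases and inhibitors had 19 of 43 members up and 3 down, with a median of 0.41 (0.13 over all 57 with a probe). Lox, lysyl oxidase, which crosslinks collagen and elastin, read 5.94, 6.31 and 6.13 in control cells and 9.24, 9.36 and 8.87 in knockdown cells (3.03, SE 0.23, adjusted p = 5.36e-06). Its relative Loxl2 rose by 1.51 (SE 0.23, adjusted p = 0.000726). The proteoglycan-cleaving proteases Adamts4 and Adamts5 rose from 7.90, 8.48 and 7.67 to 10.82, 11.10 and 10.55 and from 8.44, 9.28 and 8.46 to 10.65, 10.70 and 10.74. These changes were 2.81 (SE 0.29, adjusted p = 5.06e-05) and 1.98 (SE 0.25, adjusted p = 0.000216). Timp1, an inhibitor of matrix metalloproteinases, fell by 0.61 (SE 0.09, adjusted p = 0.00068).

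Adhesion receptors moved in both directions, with 12 of 46 members up and 13 down. The collagen receptor Itga11 rose from 5.84, 7.28 and 7.29 to 9.71, 10.55 and 10.18 (3.34, SE 0.46, adjusted p = 0.000372), and control array 1 lay furthest from the rest of its group. Knockdown array 1 was the lowest of its own group as well. Itga1, another collagen-binding subunit, rose by 0.96 (SE 0.14, adjusted p = 0.000627), whereas Itga2, a collagen- and laminin-binding subunit, fell by 1.21 (SE 0.16, adjusted p = 0.000286). Nectin2, an adhesion molecule that NK-cell receptors recognize, fell from 10.65, 10.87 and 10.45 to 9.02, 9.13 and 8.50 (-1.78, SE 0.17, adjusted p = 3.94e-05). Itgb7, a leukocyte integrin subunit, fell from 9.78, 9.72 and 9.79 to 8.25, 8.12 and 8.33 (-1.53, SE 0.14, adjusted p = 2.86e-05). Cdh6 fell by 1.497 (SE 0.19, adjusted p = 0.000242), while the epithelial cadherin Cdh1 appeared from below detection and was at least 2.33-fold higher. The number of risen members was 6 without control array 1 or knockdown array 2 and 7 without control array 3.

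Secreted growth factors and their receptors changed in many families. In the TGF-beta, activin and BMP list 9 of 42 members rose and 3 fell (7 fell in the blocked fit). Bmp4 read 6.58, 7.20 and 6.91 in control cells and 10.11, 10.18 and 10.34 in knockdown cells (3.31, SE 0.23, adjusted p = 2.71e-06), a 9.94-fold rise of the ligand. Inhba, the subunit of activin A, went from 7.69, 8.61 and 7.93 to 10.27, 10.61 and 10.94 (2.53, SE 0.30, adjusted p = 0.000126). Grem1, which binds and blocks BMP ligands, fell from 14.44, 14.29 and 14.42 to 13.41, 13.44 and 13.54 (-0.92, SE 0.12, adjusted p = 0.000229). Id4, a dominant-negative helix-loop-helix protein, fell from 11.18, 11.52 and 11.36 to 9.64, 9.67 and 9.86 (-1.62, SE 0.19, adjusted p = 0.000107). Of the same pathway, Tgfb3 rose by 1.15 (SE 0.19, adjusted p = 0.00154) and the follistatin-like protein Fstl1 by 1.499 (SE 0.20, adjusted p = 0.00031).

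The Wnt list had 11 of 32 members up and 2 down (1 when an array other than control array 1 was left out), with a median of 0.30 (0.04 over all 54 with a probe and 0.18 without background correction). Nkd2 and Dkk3, both antagonists of the pathway, rose by 1.80 (SE 0.22, adjusted p = 0.000148) and 1.61 (SE 0.26, adjusted p = 0.00132). The ligand Wnt6 went from 6.56, 6.95 and 6.38 to 8.66, 8.11 and 7.91 (1.595, SE 0.31, adjusted p = 0.00364), and the receptor Fzd2 from 7.84, 8.16 and 7.92 to 9.36, 9.29 and 9.19 (1.31, SE 0.15, adjusted p = 0.000114). Wnt7b, another ligand, fell by 0.92 (SE 0.15, adjusted p = 0.00144). In the Notch list 0 of 18 members rose and 2 (11.1%) fell, near the 9.27% of all genes that fell. They were the ligand Dll1, from 10.78, 10.72 and 10.73 to 9.46, 9.47 and 9.84 (-1.15, SE 0.15, adjusted p = 0.000276), and the receptor Notch1, by -0.77 (SE 0.16, adjusted p = 0.0057). In the blocked fit 2 Notch genes rose, 1 rose without control array 3, and 4 fell when knockdown array 1 or 3 was left out.

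Receptor tyrosine kinases and their ligands had 10 of 35 members up and 5 down. The ligands Gdnf and Pdgfc rose from 6.66, 8.001 and 7.67 to 9.08, 9.41 and 9.38 (1.85, SE 0.36, adjusted p = 0.00401) and from 9.89, 9.87 and 9.73 to 11.25, 11.31 and 11.19 (1.42, SE 0.14, adjusted p = 4.80e-05). The mesenchymal growth factor Fgf7 rose by 1.57 (SE 0.37, adjusted p = 0.0111). The EGF receptor ligands Btc and Epgn fell, Btc to below detection and at least 1.88-fold and Epgn by 0.87 (SE 0.18, adjusted p = 0.00489). Mertk, a receptor for dying cells, fell from 10.09, 10.36 and 9.84 to 8.93, 8.85 and 9.10 (-1.14, SE 0.16, adjusted p = 0.000466). In the IGF axis 3 of 15 members rose and 3 fell: Igfbp2, a binding protein of insulin-like growth factors, went from 8.82, 9.75 and 9.09 to 11.91, 12.01 and 12.12 (2.80, SE 0.22, adjusted p = 7.57e-06), Igfbp7 rose by 0.62 (SE 0.15, adjusted p = 0.0116), and Igfbp4 and Igfbp6 fell by 0.49 (SE 0.09, adjusted p = 0.0027) and 0.68 (SE 0.14, adjusted p = 0.00485).

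Among genes that report on MAP kinase activity more fell than rose. ERK induces ETS factors of the Etv family, AP-1 subunits and the phosphatases and inhibitors that restrain it. Of 34 such genes 12 fell, 4 rose and 18 were not called, with a median of -0.34 (-0.40, -0.30 and -0.37 in experiments 1 to 3). Etv4 read 10.23, 10.40 and 10.15 in control cells and 8.996, 8.95 and 9.07 in knockdown cells (-1.25, SE 0.11, adjusted p = 2.34e-05). Etv5 went from 9.10, 8.49 and 8.62 to 7.57, 7.73 and 7.19 (-1.24, SE 0.21, adjusted p = 0.00162). Dusp4, a phosphatase that inactivates ERK, went from 10.01, 9.82 and 9.90 to 8.90, 8.61 and 8.76 (-1.16, SE 0.13, adjusted p = 8.76e-05). Fosl1, an AP-1 subunit, went from 9.29, 9.13 and 9.41 to 7.85, 7.92 and 8.10 (-1.32, SE 0.20, adjusted p = 0.000729). The groups did not overlap for any of the 4 genes. The other 8 that fell, named after their values were seen, were Etv1, Egr2, Dusp6, Spry3, Maff, Phlda1, Spred1 and Btg1. The genes that rose were Klf2, Atf3, Dusp1 and Ier3, of which only Dusp1 (0.77, SE 0.16, adjusted p = 0.00671) kept its call whichever of the 6 arrays was left out; with 1 array less, 1 to 3 of the 4 were called.

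A list of 25 measured genes reported as targets of the human PAX3-FOXO1 protein, compiled from general knowledge, had 1 member up and 5 down (median -0.29, and -0.40, -0.47 and -0.29 in experiments 1 to 3). The median was -0.15 over all 37 with a probe and -0.12 without background correction. In the blocked fit 10 fell and 4 rose. Il24, a cytokine of the IL-10 family, had the largest fall, from 12.29, 12.41 and 12.14 to 10.23, 10.19 and 10.83 (-1.86, SE 0.22, adjusted p = 0.000148). Fgf8, a growth factor of embryonic patterning, went from 11.33, 11.17 and 10.95 to 9.49, 9.44 and 9.66 (-1.62, SE 0.20, adjusted p = 0.000186). Cdh3, P-cadherin, fell by 0.74 (SE 0.16, adjusted p = 0.00661) and Pdgfra, a receptor for platelet-derived growth factor, by 0.73 (SE 0.17, adjusted p = 0.0122), the latter named after its value was seen; the fifth was Grem1 above. Igf2 was the member that rose (0.46, SE 0.13, adjusted p = 0.0273), and it missed the threshold without knockdown array 1, control array 2 or knockdown array 3 (adjusted p up to 0.102). The listed targets Fgfr4 (-0.73, SE 0.28, adjusted p = 0.0951) and Skp2 (-0.05, SE 0.14, adjusted p = 0.841), picked after their values were seen, were not called.

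Chemokines and cytokines had 11 of 40 members up and 5 down, and 6 or 7 up without control array 1, knockdown array 2 or knockdown array 3. Ccl7, which attracts monocytes, was detected on 0 control arrays (5.56, 5.09 and 5.32) and on all 3 knockdown arrays (8.30, 8.74 and 8.20), at least 6.39-fold higher. Cxcl12, the ligand of CXCR4, went from 8.34, 8.63 and 8.59 to 11.15, 11.33 and 11.66 (2.86, SE 0.15, adjusted p = 7.89e-07). Ccl2, another monocyte attractant, rose by 1.42 (SE 0.22, adjusted p = 0.000781), and the inflammasome cytokine Il18 was at least 1.86-fold higher. Lifr, the receptor for leukemia inhibitory factor, fell by 1.17 (SE 0.23, adjusted p = 0.0037). Of 8 complement genes 3 rose and 1 fell. Cd59a, which blocks the membrane attack complex, went from 10.48, 10.52 and 10.56 to 12.20, 12.14 and 12.41 (1.73, SE 0.09, adjusted p = 7.89e-07), while Cd55, which dissolves the convertases, fell by 0.98 (SE 0.10, adjusted p = 5.12e-05). Of 35 guidance genes 4 rose (8 in the blocked fit) and 4 fell. Each share was 11.4%, near the 9.83% and 9.27% of all genes. Among them the ephrin Efnb2 rose by 1.40 (SE 0.25, adjusted p = 0.0022) and the semaphorin Sema7a fell from 9.43, 9.37 and 9.17 to 7.54, 8.11 and 7.58 (-1.58, SE 0.17, adjusted p = 7.09e-05).

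Few genes of the respiratory chain, the ribosome and cholesterol synthesis were called. Of 72 respiratory chain genes 1 rose and 4 fell, of 58 cytosolic ribosomal protein genes 0 rose and 1 fell, of 21 cholesterol synthesis genes 0 rose and 1 fell, and of 43 genes of ribosome biogenesis and the Myc network 2 rose and 2 fell. For the last list the count that fell was 6 in the blocked fit, 7 without background correction and 1 without control array 2, knockdown array 1 or knockdown array 2. In the full fit these shares are under the 9.83% and 9.27% of all genes. The respiratory genes that fell numbered 2 without control array 1 or knockdown array 3. Named exceptions were Ndufab1, the mitochondrial acyl carrier protein (-0.91, SE 0.17, adjusted p = 0.00257), and Mycl, a Myc family factor (1.496, SE 0.16, adjusted p = 6.76e-05). Glycolysis had 7 of 31 members up (4 without knockdown array 3) and 2 down (0 or 1 when an array other than control array 3 was left out), led by the muscle form of enolase, Eno3, from 10.32, 10.43 and 10.29 to 11.93, 11.79 and 11.89 (1.52, SE 0.10, adjusted p = 1.98e-06). Pdk4, a kinase that restrains pyruvate dehydrogenase, rose by 1.09 (SE 0.28, adjusted p = 0.0187) and was not called without control array 1, knockdown array 2 or knockdown array 3 (adjusted p up to 0.0776). The muscle phosphoglycerate mutase Pgam2 rose by 1.07 (SE 0.22, adjusted p = 0.00497). Of 41 fat metabolism genes 3 (7.32%) rose and 4 (9.76%) fell, near the shares of all genes, and 5 rose in the blocked fit. Pparg, the regulator of fat cells, went from 11.93, 11.51 and 11.67 to 10.82, 10.25 and 10.68 (-1.12, SE 0.20, adjusted p = 0.00194), and the fat cell genes Adipoq, Plin1 and Fabp4 were undetected on all 6 arrays.

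Stress genes rose in part. Of 28 heat shock chaperones 7 rose and 1 fell (4 rose without knockdown array 1, while 3 fell in the blocked fit and 0 when any array other than control array 3 was left out), with a median of 0.05. Hspa1a, the inducible HSP70, went from 6.42, 6.302 and 5.97 to 9.54, 9.26 and 8.72 (2.94, SE 0.21, adjusted p = 3.27e-06), and its copy Hspa1b may contribute to that signal. The small heat shock protein Cryab rose by 0.83 (SE 0.13, adjusted p = 0.000825). Among 35 genes of the integrated stress response and amino acid supply 6 (17.1%) rose and 2 (5.71%) fell, beside 9.83% and 9.27% of all genes. The number that fell was 4 in the blocked fit and 1 when any array other than control array 2 was left out. Ddit4, an inhibitor of mTORC1, rose from 10.22, 9.97 and 9.94 to 11.25, 11.004 and 11.22 (1.12, SE 0.15, adjusted p = 0.00029). Of 37 antioxidant genes 4 rose (7 in the blocked fit) and 4 fell (1 without control array 3, knockdown array 1 or knockdown array 2), with Hmox1, heme oxygenase, up by 1.08 (SE 0.13, adjusted p = 0.000182). Each share of antioxidant genes was 10.8%, near the 9.83% and 9.27% of all genes. Targets of normal FOXO factors had 6 of 25 members up and 1, Foxo1 itself, down. Trp53inp1, a p53- and FOXO-responsive gene of autophagy, went from 6.19, 6.23 and 6.07 to 8.34, 8.23 and 8.54 (2.20, SE 0.13, adjusted p = 9.49e-07). The cause of this rise was not tested. The number of risen FOXO targets was 2 to 4 when an array was left out, lowest without control array 1 or knockdown array 2. In the solute carrier list 7 of 52 (13.5%) rose and 8 (15.4%) fell, beside 9.83% and 9.27% of all genes. The iron exporter Slc40a1 was up from 5.79, 6.55 and 6.68 to 8.46, 8.50 and 8.60 (2.18, SE 0.29, adjusted p = 0.000293).

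Markers of other cell types were read on the same arrays. All 8 endothelial markers with a probe were undetected on all 6 arrays, and 7 of 9 immune markers, Ptprc and Itgam among them, were undetected; Cd3e was detected on the 3 knockdown arrays only. The summed level of the immune markers was 8.39 to 8.52 in control and 8.50 to 8.58 in knockdown arrays. The summed level of 8 fibroblast markers lay between 11.1 and 11.7 in control arrays and between 11.9 and 12.2 in knockdown arrays, with Lum, Fap and Dpt undetected. For 6 smooth muscle cell markers the ranges were 14.5 to 15.1 and 15.6 to 15.8. For 8 epithelial markers they were 13.6 to 13.9 and 14.0 to 14.2, and Krt5 and Esrp1 were undetected. For 7 skeletal muscle lineage markers they were 11.5 to 11.8 and 11.1 to 11.3, so that control arrays were the higher. The sums add linear signals, so the brightest member weighs most and the others can differ. Among the skeletal markers Chrna1 went from a mean of 11.40 to 10.87, while Des rose from 6.65 to 7.26. Of the fibroblast markers Col3a1 went from 10.92 to 11.85, while Pdgfra fell from 8.90 to 8.17. The brightest smooth muscle marker was Acta2, at 14.65 and 15.66. The part of these shifts in the matrix and contractile results was not tested, and in such sorted pools more cells of a type cannot be told apart from more RNA per cell.

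The same knockdown had been measured in 3 experiments of 2N (G0/G1) cells with their own controls. There 1001 genes (10.9%) rose and 955 (10.4%) fell. Of the 1747 genes called in 4N cells 1315 were called in 2N cells with the same sign, which is 75.3% of the 4N calls and 67.2% of the 2N calls. The difference between the 4N and 2N changes passed the threshold for 0 genes (0%) in the limma fit, where the lowest adjusted p was 0.722 and 293 genes had an unadjusted p under 0.05. Acta1 changed by 2.80 in 4N and 2.74 in 2N cells, Bmp4 by 3.31 and 3.26, Lox by 3.03 and 2.96, and Etv4 by -1.25 and -1.24. Rsad2 (2.49 against 1.87), Gbp2 (2.55 against 2.00) and Usp18 (2.67 against 2.24) had the larger value in 4N cells, and Ogn (3.32 against 3.93) in 2N cells. The median change of the measured members of the class I list was 0.79 in 4N and 0.61 in 2N cells and that of the interferon-induced effectors 0.79 and 0.71. Of the 187 genes picked by a rule of size on their 4N values, 184 had the same sign in both populations. Sema4a, Ero1b and Hoxa10 had opposite signs and 4N changes of -0.43, 0.52 and 0.58, each lost as a call without at least 4 of the 6 arrays in turn.

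**Figure D4:**
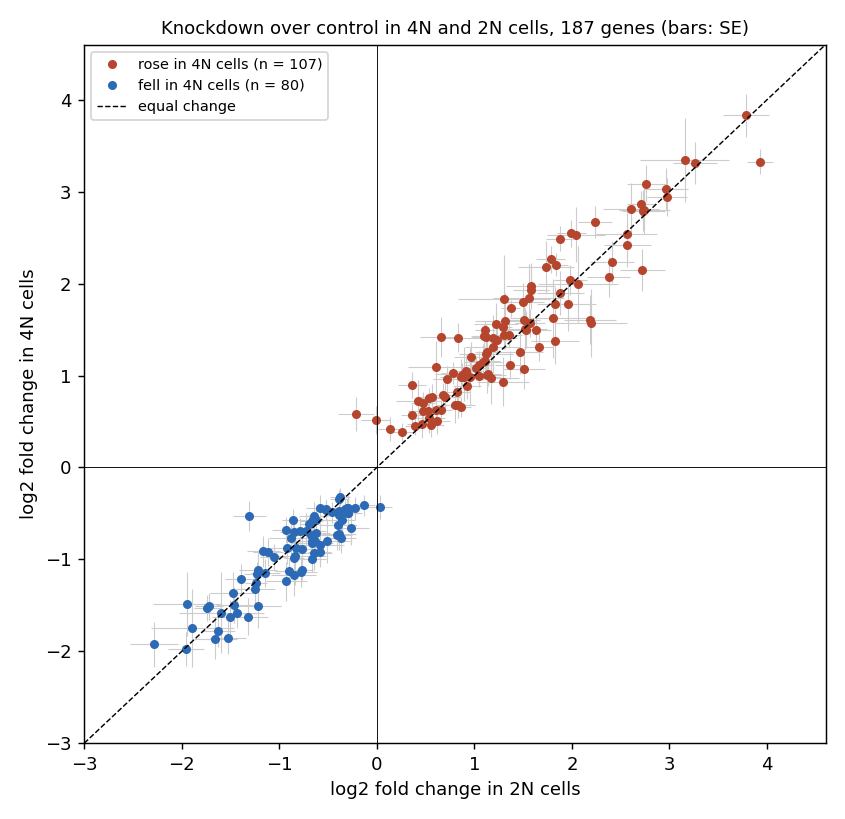
Log2 fold change of knockdown over control in 4N cells (vertical axis) and 2N cells (horizontal axis) for the 187 named genes, with the SE as bars, red for genes that rose and blue for genes that fell in 4N cells, and a dashed line of equal change. The points lie near the dashed line, with 184 of 187 in the same direction in both populations; the genes were chosen on their 4N values.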

How the data were processed

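RNA of tumor cells sorted by Hoechst staining of DNA into 2N, 3N and 4N populations was hybridised to 16 single-colour Illumina MouseRef-8 v2 bead arrays. The authors read the arrays with GenomeStudio and deposited non-normalized bead intensities, with detection values as a fraction from 0 to 1 per probe that was taken as 1 minus the detection p-value. The authors also deposited processed intensity values, which differed from quantile-normalized signals by at most 0.0327 on the log2 scale. They were used as an alternative.

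The intensities were background-corrected with normexp from the detection values (offset 16), log2-transformed and quantile-normalized over all arrays with limma 3.58.1 in R 4.3.3. A probe was kept where its detection p was under 0.05 on 3 or more of the 12 2N and 4N arrays (13615 of 25697). Of all probes 23978 had a gene symbol and 1719 had none. The probe with the brightest mean stood for each of 9146 genes. A limma model of 4 groups was fitted over the 12 arrays with Benjamini-Hochberg adjustment over all genes, so that every p-value in the text is from limma unless named otherwise. The scripts were tested on simulated data.

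Deviations from the group means correlated at 0.415, 0.101 and 0.147 for pairs of arrays with the same experiment number. For the other pairs the correlations were -0.127, -0.270, -0.251, 0.143, -0.192 and 0.033. The labels give control and knockdown arrays the same experiment numbers, and the paper describes independent experiments, so the arrays were paired by design. All same-number values were positive and most of the others negative, but only 0.415 stood clear of the others. How large the shared part was in the other experiments was not settled. The main fit had no block and treated arrays of the same experiment as independent. The fit with the experiment as a block was an alternative. In 4N cells it called 1147 genes up and 1144 down, against 899 and 848 in the main fit.

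Genes were named by a fixed rule: the 15 largest rises and falls among called genes changed the same way in all 3 experiments, with all arrays of the brighter group detected, and outside the cell cycle and adaptation genes, up to 4 called members of each list in each direction, Foxo1 and the cell type markers. Others are named as chosen after their values were seen. The members and lists were chosen with earlier results of these data known. Alternatives changed the background correction, the normalization, the filter, the probe rule, the arrays in the fit, the variance model and the block, and left out each 4N array in turn. The number of arrays limits the precision. Promoter windows came from RefSeq (GRCm38.p6). Figures were drawn with matplotlib 3.10.9 in python 3.11.15.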

Additional observations from a re-analysis of the deposited data

Results flagged for a closer look

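The arrays of 3N cells, 2 of each group, entered no comparison above. Of the 187 genes named by rule, 177 (94.7%) had both 3N knockdown arrays on the side of both 3N control arrays that the 4N call gave. The median 3N difference was 1.28 for the genes that had risen and -0.80 for those that had fallen in 4N cells. Over all 9146 genes tested the 3N groups did not overlap for 53.3%, and for 48.1% in the direction of their own 4N change. These values are a description, and no test of the 3N arrays was run.

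Probes without a gene symbol were outside the gene counts. Of 809 such probes that were detected, 49 (6.06%) rose and 68 (8.41%) fell in 4N knockdown cells.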

How the results depend on the processing

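The counts of genes called in 4N cells stayed within 1.5 times the 899 that rose and 848 that fell under each alternative run. They were 957 and 951 without background correction, 819 and 753 without a detection filter, 827 and 794 from the 6 arrays of 4N cells alone, and 778 and 755 with ordinary variances. With the experiment as a replicate block 1147 rose and 1144 fell, and all 187 named genes were still called. Without 1 array of 4N cells, 651 to 757 rose and 578 to 689 fell. The difference between 4N and 2N cells was called for 0 genes under each alternative that could test it, also without 1 array, with 246 to 626 genes at an unadjusted p under 0.05 in limma.

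No named gene changed direction. Of the 187, 143 kept their call whichever array of 4N cells was left out and 44 lost it at least once. Without a detection filter 17 lost it and with ordinary variances 34. Among the 70 list counts, 18 moved by over 1.5 times with the block, mostly counts of 4 or fewer, and 11 to 19 did so when an array was left out. The medians of the lists moved most without a detection filter (17 of 35), which adds undetected members: that of sarcomere genes went from 1.15 to 0.08, of interferon-induced effectors from 0.79 to 0.28, of collagens from 0.49 to 0.16 and of matrix glycoproteins from 0.30 to 0.09. Without background correction 12 of 35 moved, that of MHC class I genes from 0.79 to 0.48; the cause was not tested. The 3 arrays a group limit the precision, and 20 named genes were undetected in a group and have only a bound there.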

Other observations

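Gene families that were not among the function lists, though Serpinb2 is also in that of matrix enzymes, held further called genes. They were picked after their values were seen. Of 8 measured Bex and Tceal genes, X-linked adaptors expressed in neural and muscle progenitors, 7 rose and the median was 1.14. Tceal8 rose by 1.17 (SE 0.10, adjusted p = 1.77e-05). Of 5 glypicans, which carry heparan sulfate at the cell surface, Gpc3, Gpc2 and Gpc4 rose. Of 7 clade B serpins, intracellular protease inhibitors, Serpinb2, Serpinb10 and Serpinb9g fell and 0 rose. Keratins went both ways, with Krt14, Krt17 and Krt7 up and Krt13, Krt23 and Krt19 down among 15 measured. Trp63, the p53 relative of basal epithelium, rose by 2.29 (SE 0.17, adjusted p = 5.36e-06), Nanog by 1.51 (SE 0.15, adjusted p = 5.12e-05) and Snai1, a repressor of Cdh1, by 1.24 (SE 0.22, adjusted p = 0.00231).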
